A study of Mus musculus with 8 samples.

Results

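The integrin, laminin and nidogen genes are 32 of the 52636 genes counted in mesenchymal stem and progenitor cells (MSPCs) of mouse bone marrow. They were chosen by symbol, as 12 integrin α chains, 8 integrin β chains, 10 laminin chains and 2 nidogens, and all 32 were found in the count table by Ensembl identifier. RNA came from MSPCs of 4 control mice (CTR, Flk2-cre+ Cxcr4fl/+) and 4 conditional knockout mice (cKO, Flk2-cre+ Cxcr4fl/fl), all on the C57BL/6 background. Both groups carry the Flk2-cre transgene, which acts in hematopoietic progenitors and lies on the Y chromosome, and at least 1 floxed Cxcr4 allele, so that CTR MSPCs are not those of wild-type mice. The labels give 6 weeks as the age of every mouse, while the methods give an older range. According to the methods, cells were sorted as CD45-, Ter119-, CD31-, CD144-, PDGFRα+ and positive for GFP expressed from Kitl. No integrin, laminin or nidogen was used in the sort. By this sort the mice also carried a Kitl allele expressing GFP, which the genotypes given above do not name. In the paper, crossing cKO mice to heterozygosity for this allele lowered membrane-bound stem cell factor and hematopoietic stem cell numbers to control levels. The question was which integrin and laminin chains MSPCs express and whether they differ when progenitors lack CXCR4.

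Integrins are cell surface receptors made of an α and a β chain, and the pairing decides which matrix protein or cell surface ligand is bound. Laminins are secreted trimers of an α, a β and a γ chain that form the cell-binding sheet of basement membranes, and nidogens link this sheet to type IV collagen. In bone marrow, MSPCs lie along sinusoids, whose basement membrane contains laminins.

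Library totals ranged from 31047344 to 38216877 counts. All 9 MSPC markers examined, among them Lepr and Cxcl12, were at 1 TPM (transcripts in 1000000) or more in every library. Of 26 hematopoietic markers, 3 had no count in any library and 10 were at 1 TPM or more in every library. The highest by mean were S100a9 (46.4 to 189 TPM), S100a8 (35.3 to 141 TPM) and Fcer1g (58.4 to 94.7 TPM). Sums of markers are given in CPM (counts in 1000000, with library sizes scaled by the TMM method). The sum of the 26 was 69.4 to 170 CPM in CTR and 98.4 to 193 CPM in cKO. The part of blood cells in the levels of the members was not tested. Of 13 endothelial markers, Tek had no count in any library and Cdh5 had 0 to 20 counts per library. The highest counts were those of Vwf (52 to 220), Flt4 (0 to 202) and Emcn (13 to 173). The summed level of endothelial markers was 11.7 to 20.3 CPM in CTR and 11.8 to 15.5 CPM in cKO. The deletion acts in hematopoietic cells, whose RNA was not measured, so that Cxcr4 in MSPCs does not check the genotype; it was at 0.107 to 0.613 CPM in CTR and 0 to 0.367 CPM in cKO. In bulk RNA, fewer cells of a type and less RNA per cell cannot be told apart. Each sample title carries a number, 26 to 32 in CTR replicates 2 and 4 and cKO replicates 2 and 4, and 67 to 86 in the other 4 libraries. Its meaning is not given in the labels, and every genotype difference below can be made within each range, with 2 CTR and 2 cKO libraries.

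Short coding stretches show how the receptor β chains that MSPCs express differ. For the 3 β chains at 1 TPM or more in every library, 30 coding bases (GENCODE M21, GRCm38) are given from the NPxY motif of the cytoplasmic tail nearest the membrane, which binds talin, with the 4 codons of the motif in capitals.
Itgb1: AATCCTATTTACaagagtgccgtgacaact
Itgb5: AACCCCCTGTACagaaagcccatctccaca
Itgb3: AACCCGCTGTATaaagaggccacctccacc
The stretches lie on the plus strand, at chr8:128732029-128732058 in Itgb1, chr16:33948663-33948692 in Itgb5 and chr11:104667086-104667115 in Itgb3. Itgb5 and Itgb3 share 23 of the 30 bases, whereas Itgb1 shares 16 with Itgb5 and 15 with Itgb3. Of 3 complete coding transcripts of Itgb5 in the annotation, 2 hold the motif.

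MSPCs expressed a defined subset of these genes. Of the 32, 19 were at 1 TPM or more in all 8 libraries, namely 7 of 12 α chains, 3 of 8 β chains, 7 of 10 laminin chains and both nidogens. At this level were 12336 of the 52489 genes with an exon length. With TMM-scaled counts per exon length in place of TPM, 18 members reached 1 in every library. Of the 32 members, 13 were at 10 TPM or more in all libraries. TPM values are counts divided by the gene's exon length and scaled to a total of 1000000 in each library, and they are used here wherever levels are compared between genes.

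**Figure D1:**
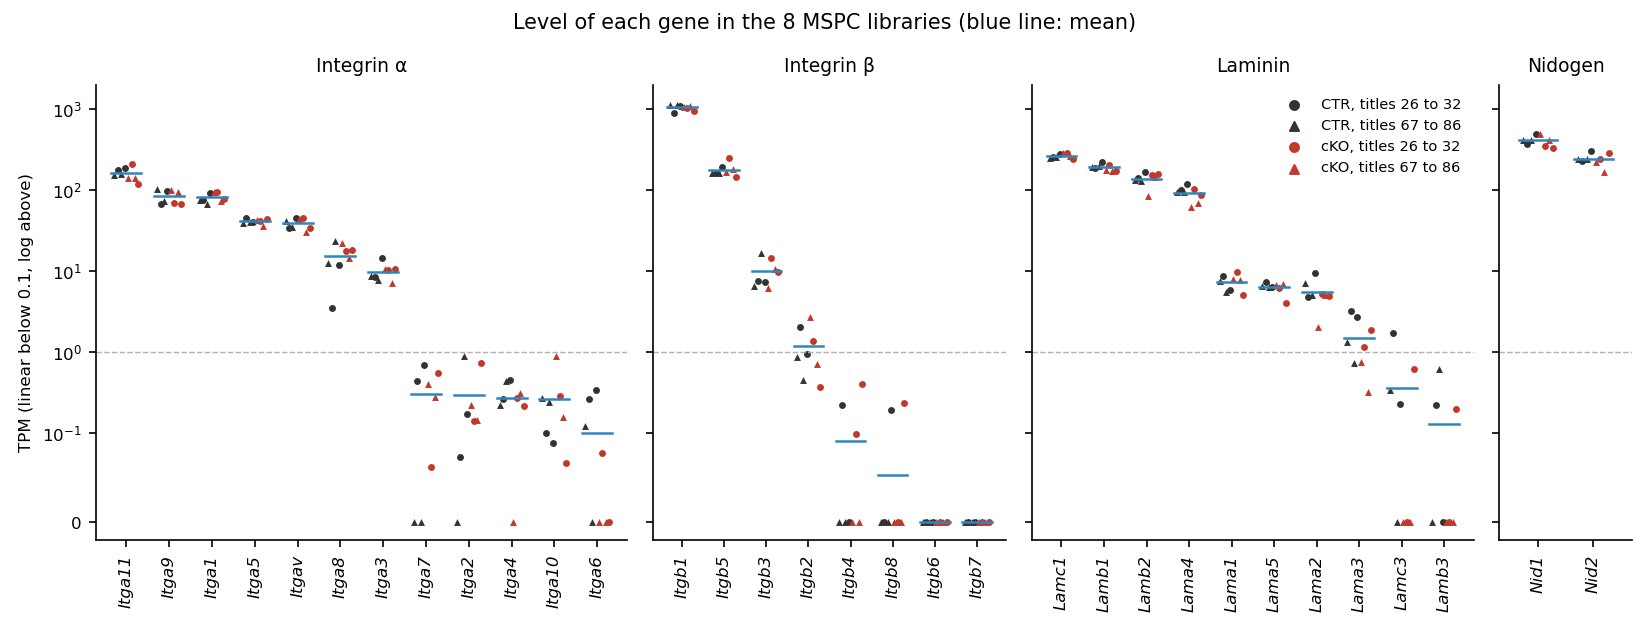
TPM of all 32 genes in each of the 8 libraries, on an axis that is linear below 0.1 and logarithmic above, with genes of each family in order of their mean (blue line), CTR in black, cKO in red, circles for titles 26 to 32 and triangles for titles 67 to 86. Itgb1 (mean 1045 TPM), Nid1 (408 TPM) and Lamc1 (263 TPM) were the highest of their families, and Itgb6 and Itgb7 were at 0 in every library.

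Among the α chains, Itga11 (chromosome 9, 62677826 to 62783982, plus strand), whose product pairs with β1 as a receptor for fibrillar collagen, had the highest mean level. In CTR replicates 1 to 4 it was at 154, 175, 159 and 184 TPM, and in cKO replicates 1 to 4 at 140, 207, 141 and 117 TPM. It held 37.1% ± 4.46 (SD, n = 8) of the summed α chain TPM, and its level lay above that of Itga9 in 8 of 8 libraries. Itga9, whose product with β1 binds tenascin-C, osteopontin and VCAM-1, was at 102, 67.1, 73.4 and 97.5 TPM in CTR and at 99.1, 68.1, 94.3 and 67.6 TPM in cKO. Itga1, the α chain of a collagen and laminin receptor, was at 75.5, 74.1, 67.2 and 92.0 TPM in CTR and at 94.3, 93.6, 72.6 and 76.0 TPM in cKO. Itga9 and Itga1 did not differ beyond their spread, since Itga9 was the higher in 5 of 8 libraries. The place of Itga1 depended on the gene model. With the longest transcript in place of the union of exons as length, the ratio of Itga1 to Itga11 was 0.696 to 1.10 over the 8 libraries instead of 0.424 to 0.672, and Itga1 exceeded Itga9 in every library (ratio 1.15 to 2.13).

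The other α chains at 1 TPM or more in every library followed at lower levels. Itga5, the α chain of the fibronectin receptor, and Itgav, which pairs with several β chains to bind RGD-containing ligands such as vitronectin, were at 40.8 ± 2.89 and 38.3 ± 6.03 TPM (SD, n = 8) and were not ordered, each being the higher in 4 of 8 libraries. Itga8, a receptor chain for nephronectin, was at 15.3 ± 6.28 TPM with the widest range among these chains, from 3.47 TPM in CTR replicate 2 to 23.1 TPM in CTR replicate 3. Itga3, the α chain of a receptor for laminins with the α5 or α3 chain, was at 9.71 ± 2.31 TPM. The laminin receptor chains Itga6 and Itga7 stayed under 1 TPM in all libraries, with means of 0.0995 and 0.300 TPM, as did Itga2 (0.293 TPM), Itga4 (0.268 TPM) and Itga10 (0.260 TPM).

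Itgb1 (chromosome 8, 128685654 to 128733200, plus strand), the common partner of most α chains, was the 98th most abundant of all genes by mean TPM. It was at 1111, 896, 1119 and 1098 TPM in CTR and at 1058, 1038, 1099 and 944 TPM in cKO, and held 84.8% ± 2.13 (SD, n = 8) of the summed β chain TPM. Itgb5, which pairs with αv, was at 162, 160, 162 and 192 TPM in CTR and at 168, 244, 183 and 146 TPM in cKO, so that Itgb1 exceeded it by 4.26 to 6.91 times within a library. Itgb3, the β chain of another vitronectin receptor, was at 6.42, 7.54, 16.8 and 7.23 TPM in CTR and at 6.15, 14.4, 10.5 and 9.67 TPM in cKO. These 3 β chains were in the same order in every library. The β chain of leukocyte integrins, Itgb2, was at 0.364 to 2.70 TPM, and the genes of its α partners, Itgal, Itgam, Itgax and Itgad, listed here as hematopoietic markers, had 0 to 106 counts per library, with Itgax at 0 in all of them. The part of blood cells in the level of Itgb2 was not tested.

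By these levels, 9 of 18 known integrin pairs had both chains at 1 TPM or more in every library. They were the pairs of β1 with α1, α3, α5, α8, α9, α11 and αv, and the pairs of αv with β3 and β5. In each β1 pair the α chain was at the lower level in 8 of 8 libraries, while in αvβ3 it was the β chain. The pairs α6β1, α6β4 and α7β1, all laminin receptors, did not reach this level, and of the laminin receptor pairs α1β1 and α3β1 did.

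Laminin and nidogen transcripts were among the abundant members. Lamc1 (chromosome 1, 153218922 to 153332786, minus strand), the γ chain of most laminins, was at 245, 254, 256 and 277 TPM in CTR and at 287, 286, 264 and 238 TPM in cKO. Lamb1 was at 192, 186, 196 and 220.5 TPM in CTR and at 177, 205, 171 and 173 TPM in cKO. Lamb2, the other β chain expressed, was at 132, 140, 130 and 164 TPM in CTR and at 83.6, 153, 142 and 156 TPM in cKO. Lamc1 made up 99.9% ± 0.231 (SD, n = 8) of γ chain TPM, and Lamb1 58.3% ± 4.56 and Lamb2 41.7% ± 4.56 of β chain TPM. Lamb1 exceeded Lamb2 in every library, by 1.11 to 2.12 times with exon union lengths and by 1.76 to 3.36 times with the longest transcript as length. Lamc1 exceeded Lamb1 by 1.26 to 1.62 times with exon union lengths, but not with the longest transcript as length, where the ratio was 0.794 to 1.03.

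Lama4 (chromosome 10, 38965515 to 39110188, plus strand) was the leading laminin α chain. It lacks most of the N-terminal short arm of other α chains, and its laminins are found in basement membranes of vessels, muscle and fat cells. It was at 90.2 ± 18.5 TPM (SD, n = 8) and held 81.3% ± 2.72 of α chain TPM. Lama1, Lama5 and Lama2 followed at 7.20 ± 1.61, 6.23 ± 0.966 and 5.43 ± 2.13 TPM and were not clearly ordered, since Lama1 exceeded Lama5 in 6 of 8 and Lama5 exceeded Lama2 in 5 of 8 libraries. Lama3, a chain of epithelial laminins, was lowest at 1.49 ± 0.996 TPM. Of 11 laminin trimers examined, 8 had all chains at 1 TPM or more in every library, namely those with α1, α2, α4 or α5 together with β1 or β2 and γ1. In the trimers with α4 the lowest chain was at 90.2 TPM on average, against 5.43 to 7.20 TPM in the 6 others, and it was the α chain in 8 of 8 libraries in each of the 8 trimers. With the longest transcript as length this held for 7 of the 8, and in the trimer of α4, β2 and γ1 the α chain was the lowest in 1 of 8 libraries.

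Nid1 was at 414, 367, 410.9 and 484 TPM in CTR and at 488, 351, 417 and 330 TPM in cKO, and Nid2 at 241, 229, 237 and 298 TPM in CTR and at 224, 241, 168 and 287 TPM in cKO. Nid1 exceeded Nid2 in every library, by 1.15 to 2.48 times. The exons of Nid2 share 8.45% of their bases with Rtraf on the opposite strand (3256 to 5052 counts), and whether counting used the strand is not given in the sources used here.

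The 13 genes at 10 TPM or more in every library had a coefficient of variation of TPM over the 8 libraries between 6.93% and 20.5%. The median was 20.8% over the 14598 genes with a count in every library. These include genes with few counts, and no comparison with genes at a like level was made, so the lower values are not read as a trait of the 13 genes. Among them the coefficient was lowest for Lamc1 (6.93%), Itga5 (7.09%), Itgb1 (7.94%) and Lamb1 (8.92%), and highest for Lama4 (20.5%). Lama2 (39.3%), Itgb3 (39.7%) and Itga8 (41.1%) varied the most among genes above 5 TPM. The number of counts per library was 18791 to 24855 for Lamc1 and 322 to 1684 for Lama2.

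For the comparison of cKO with CTR, edgeR was run on the 14598 genes counted at least once in each library, of which 22 are members. No member passed the threshold (adjusted p under 0.05), and 0 of all 14598 genes did (0%). At an unadjusted p under 0.05 were 646 genes (4.43%), with 2.08% of all genes lower in cKO, and 1 member, Lama4, which was lower. The libraries of the genotypes did not overlap for 381 genes (2.61%) and for 0 of the 22 members. Of the members, 8 had a log2 fold change above 0 and 14 below 0 (49.8% and 50.2% of all genes). The median absolute log2 fold change was 0.13 over the members and 0.14 over all genes tested. In the fit without a filter on counts and with filterByExpr, 1 gene passed, and with DESeq2's Wald test 23 genes, and in each of these 0 members did.

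The 3 lowest log2 fold changes were those of laminin α chains. Lama4 was at 338, 355, 338 and 412 CPM in CTR replicates 1 to 4 and at 218, 355, 248 and 315 CPM in cKO replicates 1 to 4. The cKO replicates 1, 3 and 4 lay below every CTR library, while cKO replicate 2 lay level with CTR replicate 2 and above CTR replicates 1 and 3. Its log2 fold change was -0.34 (SE 0.15, n = 4 against 4), with an unadjusted p of 0.0495 and an adjusted p of 0.999 in edgeR. When 1 library at a time was omitted, it lay between -0.47 and -0.24, and 2 of 8 fits had an unadjusted p under 0.05. Within the title number ranges, the difference of mean log2 CPM was -0.19 for 26 to 32 and -0.54 for 67 to 86. Adding the title number range as a term gave -0.36 (SE 0.11, adjusted p = 0.875 with edgeR).

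Lama2, the laminin α chain of muscle and nerve, was at 34.4, 23.1, 24.8 and 44.9 CPM in CTR and at 9.84, 24.2, 25.1 and 23.8 CPM in cKO. Its log2 fold change was -0.62 (SE 0.31, adjusted p = 0.999 with edgeR), and it was -0.39 without cKO replicate 1, the lowest library, and -0.41 without CTR replicate 4, the highest. Lama3 was at 4.23, 9.96, 2.32 and 8.41 CPM in CTR and at 2.35, 3.55, 1.04 and 5.94 CPM in cKO, with a log2 fold change of -0.95 (SE 0.58, adjusted p = 0.999 with edgeR). It was -1.43 without cKO replicate 4 and -0.63 without CTR replicate 2. The differences of mean log2 CPM within the title number ranges were -0.994 for 26 to 32 and -1.001 for 67 to 86. Lama3 rests on 34 to 326 counts per library. Lama1 (log2 fold change 0.14, SE 0.22) and Lama5 (-0.14, SE 0.18) differed by less than their errors.

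The summed laminin α chain TPM was 123 ± 13.6 in CTR and 98.1 ± 20.02 in cKO (SD, n = 4 each). The sums of laminin β chains were 340 ± 29.4 and 315 ± 40.7 TPM, those of γ chains 259 ± 13.2 and 269 ± 22.6 TPM, and those of nidogens 671 ± 78.9 and 626 ± 58.5 TPM. Lama4 made up most of the α chain sum.

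**Figure D2:**
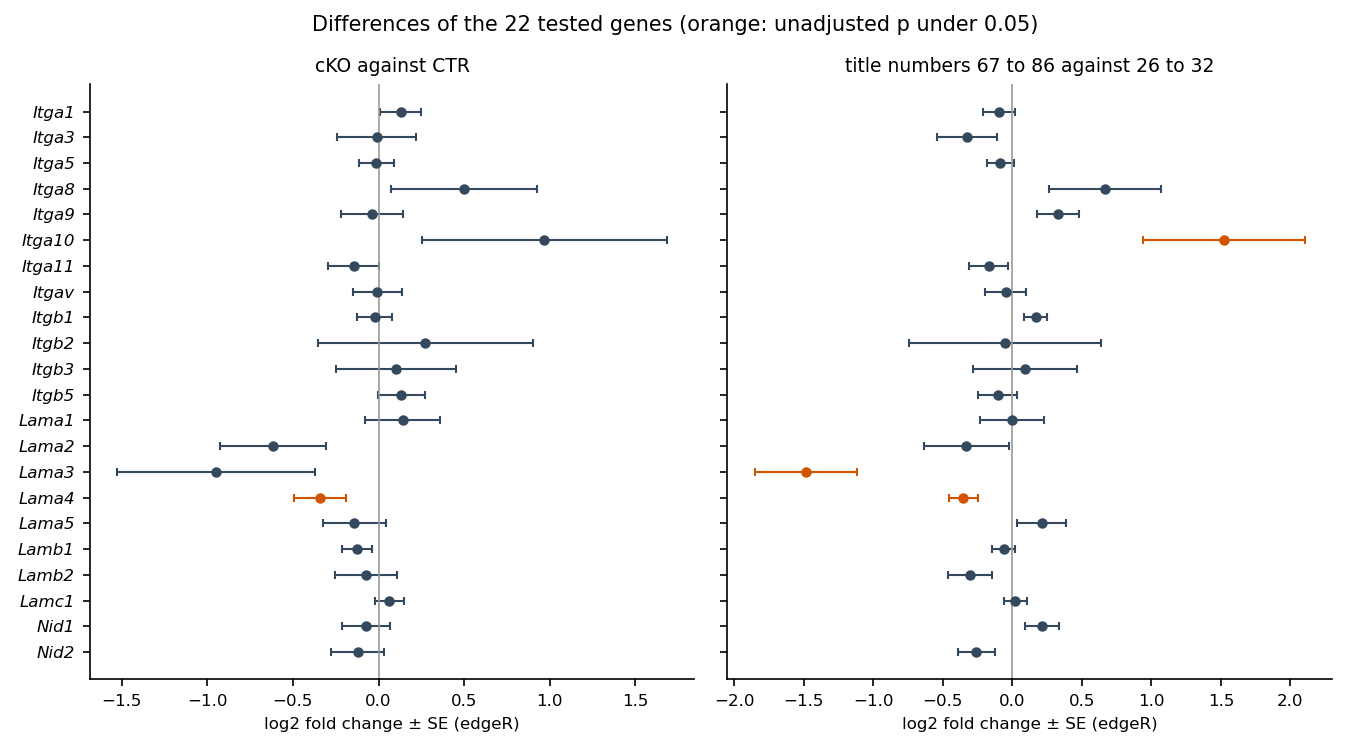
Log2 fold change with its standard error from edgeR for the 22 tested members, cKO against CTR on the left and titles 67 to 86 against 26 to 32 on the right, with genes at an unadjusted p under 0.05 in orange. On the left only Lama4 (-0.34) is orange, and on the right Itga10 (1.52), Lama3 (-1.48) and Lama4 (-0.35) are.

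No integrin chain passed the threshold between genotypes with edgeR. The log2 fold changes of the chains above 30 TPM were 0.13 for Itga1 (SE 0.12), 0.13 for Itgb5 (SE 0.14), -0.15 for Itga11 (SE 0.15), -0.04 for Itga9 (SE 0.18), -0.02 for Itgb1 (SE 0.10), -0.01 for Itga5 (SE 0.10) and -0.01 for Itgav (SE 0.14). The largest positive values belonged to chains with few counts or a wide spread, Itga10 (0.97, SE 0.71, 4 to 44 counts) and Itga8 (0.50, SE 0.43). Itga3 was at -0.01 (SE 0.23), Itgb3 at 0.10 (SE 0.35) and Itgb2 at 0.27 (SE 0.63). Among the remaining laminin chains and the nidogens, the values were -0.13 for Lamb1 (SE 0.09), -0.07 for Lamb2 (SE 0.18), 0.06 for Lamc1 (SE 0.09), -0.07 for Nid1 (SE 0.14) and -0.12 for Nid2 (SE 0.15).

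Since the log2 fold change of Lamc1 was above 0 and those of Lamb1 and Lama4 were below 0, their ratios were read within each library. The ratio of Lamc1 to Lamb1 was 1.27, 1.37, 1.30 and 1.26 in CTR and 1.62, 1.39, 1.54 and 1.38 in cKO, so that all cKO values lay above all CTR values. The ratio of Lamc1 to Lama4 was 2.62, 2.56, 2.74 and 2.35 in CTR and 4.70, 2.79, 3.89 and 2.76 in cKO, again without overlap. In both cases the cKO libraries with titles 67 to 86 were the highest. Of the 21 other tested members, 2 had a ratio of Lamc1 to their level without overlap between genotypes, against 2.6% of all other tested genes (1.96% with cKO higher, as here). These ratios were chosen after their values were seen, and no test is given.

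**Figure D3:**
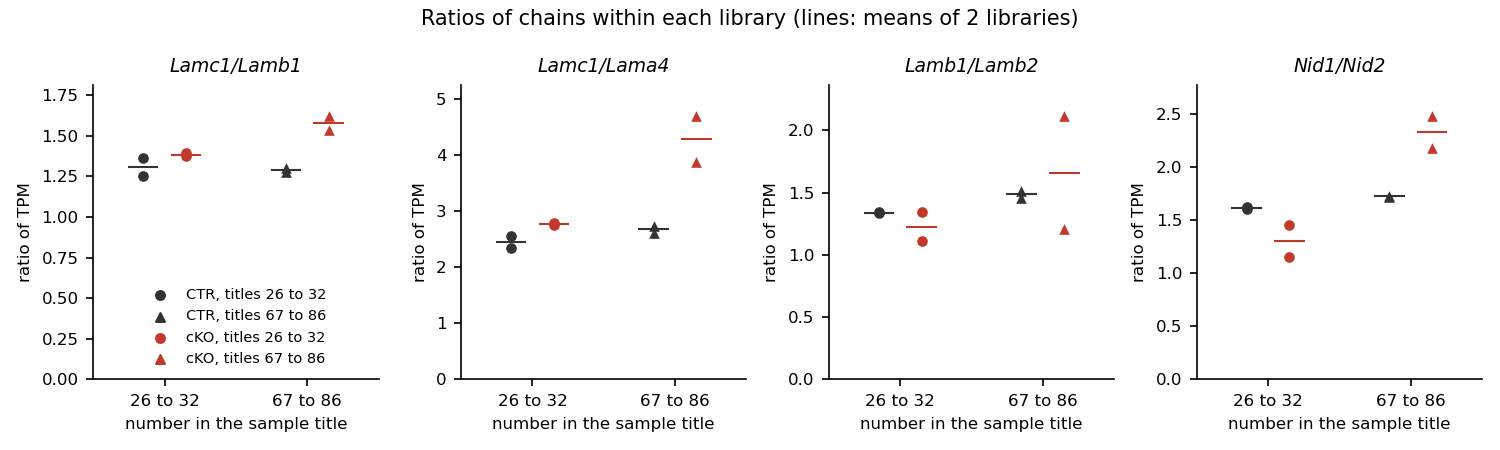
Ratios of TPM within each library for 4 pairs of chains, by the number in the sample title, with CTR in black, cKO in red and lines at the means of 2 libraries. Lamc1/Lamb1 spans 1.26 to 1.37 in CTR and 1.38 to 1.62 in cKO, and Nid1/Nid2 spans 1.61 to 1.73 in CTR and 1.15 to 2.48 in cKO.

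The ratio of Nid1 to Nid2 was 1.72, 1.61, 1.73 and 1.62 in CTR and 2.18, 1.46, 2.48 and 1.15 in cKO. The CTR libraries lay close together (SD 0.0641), and the cKO libraries lay on both sides of them (SD 0.619), above with titles 67 to 86 and below with titles 26 to 32.

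The title number ranges were compared with genotype in the model. Of 14598 genes, 2 passed the threshold (0.0137%) and 1694 had an unadjusted p under 0.05 (11.6%). Of the 22 members, 0 passed and 3 had an unadjusted p under 0.05, of which 1 was higher (5.1% of all genes) and 2 were lower (6.5%) in titles 67 to 86, and in 0 of them the ranges did not overlap (7.69% of all genes). Lama3 was lower in titles 67 to 86, at 2.49 ± 1.31 CPM against 6.97 ± 2.81 CPM in titles 26 to 32 (SD, n = 4 each), with a log2 fold change of -1.48 (SE 0.37, unadjusted p = 0.00303, adjusted p = 0.208 with edgeR). It passed with DESeq2's Wald test (adjusted p = 0.00442) and likelihood ratio test (adjusted p = 0.00588), and not in the 5 other fits with all libraries (adjusted p from 0.173 to 0.292). Lama4 was also lower in titles 67 to 86, at 286 ± 61.5 against 359 ± 39.8 CPM, with a log2 fold change of -0.35 (SE 0.11, unadjusted p = 0.00845, adjusted p = 0.271 with edgeR). Itga10, a collagen receptor chain of cartilage, was at 0.420, 0.153, 0.372 and 0.133 CPM in CTR and at 1.34, 0.427, 0.245 and 0.104 CPM in cKO. Its log2 fold change was 1.52 (SE 0.58, adjusted p = 0.370 with edgeR) and 0.83 without cKO replicate 1. It shares 33.5% of its exon bases with Gm42957 on the same strand, so that its counts are uncertain. For the interaction of genotype and title number range, 0 of 14598 genes passed (0%), and 502 had an unadjusted p under 0.05 (3.44%), with 0 members in either count by edgeR. With DESeq2's Wald test 22 genes and 0 members passed.

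**Figure D4:**
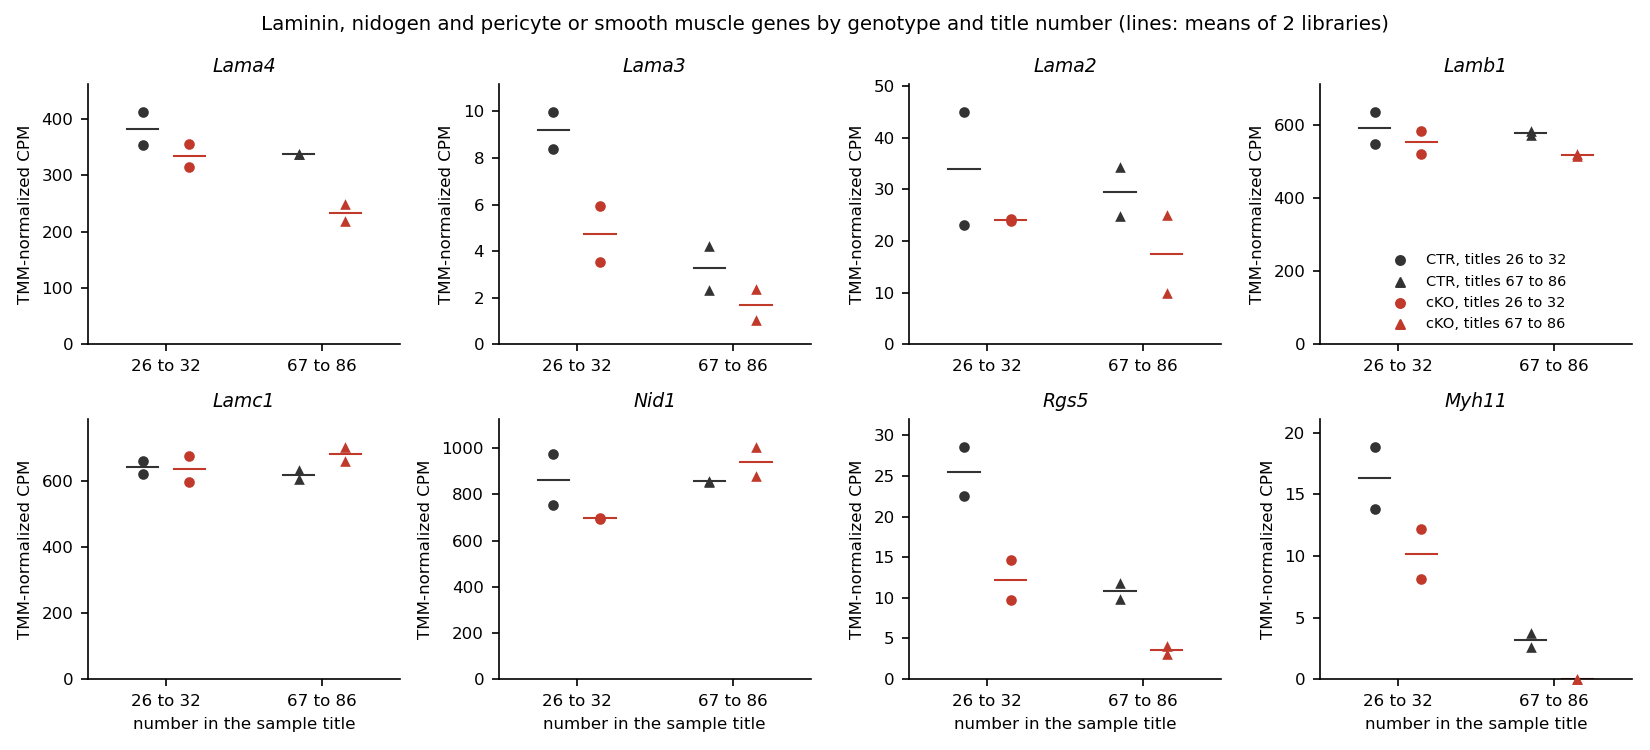
TMM-normalized CPM of 6 laminin and nidogen genes and of the pericyte or smooth muscle genes Rgs5 and Myh11, by the number in the sample title, with CTR in black, cKO in red and lines at the means of 2 libraries. Lama4, Lama3, Rgs5 and Myh11 have their lowest means in the cKO libraries with titles 67 to 86, where Myh11 is at 0. Rgs5 and Myh11 were chosen from 8 such markers after their values were seen. Of the 8, 6 had a lower mean in cKO and 2, Notch3 and Mcam, a higher one.

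Markers of smooth muscle cells and pericytes were mixed in direction. Of 8 such markers, 6 had a lower mean CPM in cKO and 2, Notch3 and Mcam, a higher one, while 5 had a lower mean in titles 67 to 86 and 3, Notch3, Kcnj8 and Cspg4, a higher one. Rgs5, a pericyte gene, was at 11.8, 22.5, 9.82 and 28.6 CPM in CTR and at 3.15, 9.78, 4.11 and 14.6 CPM in cKO. Its log2 fold change was -1.20 between genotypes (SE 0.51, unadjusted p = 0.0412, adjusted p = 0.999) and -1.49 between title number ranges (SE 0.23, unadjusted p = 0.000123, adjusted p = 0.112) with edgeR. Myh11, a myosin of smooth muscle, was at 3.78, 13.8, 2.63 and 18.8 CPM in CTR and at 0, 8.16, 0 and 12.2 CPM in cKO. Thus Rgs5 and Myh11 had their lowest values in the libraries where Lama4 was lowest, and other markers did not follow this order. Tagln was lowest in cKO replicate 2 (5.97 CPM), and in cKO replicate 1 (8.83 CPM) it lay above CTR replicates 1 and 3 (8.23 and 7.22 CPM). Acta2 was lowest in cKO replicate 3 (1.07 CPM), but in cKO replicate 1 (2.90 CPM) it lay above CTR replicates 2 and 3 (2.75 and 2.85 CPM). The list of 8 markers had a count in at least 1 library for every gene. Its summed level was 347 to 409 CPM in CTR and 369 to 408 CPM in cKO, and Notch3 accounts for most of it. Without Notch3, a choice made after the values were seen, the sum was 34.0, 57.2, 29.4 and 68.7 CPM in CTR and 20.4, 31.0, 15.5 and 45.8 CPM in cKO. The part of these cells in the Lama3 and Lama4 values was not tested. Endothelial markers summed to at most 20.3 CPM, and epithelial markers to at most 2.56 CPM. Of the epithelial markers, Cdh1, Krt5 and Krt14 were at 0 in every library. Krt8 (66 counts), Epcam (27 counts) and Krt18 (3 counts) were counted in CTR replicate 4 only. The part of epithelial cells in the Lama3 values was not tested.

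The 10 members without a count in every library were left out of the fit as reported. In the fits without a filter on counts, all of them but Itgb6 and Itgb7 were included. There 0 members passed the threshold between genotypes, between title number ranges or for the interaction. Itgb6 and Itgb7 had 0 counts in all 8 libraries, and a count of 0 allows up to 3 counts per library, or 0.0785 to 0.0966 CPM by its total without scaling (counting error only). The ranges of counts were 0 to 61 for Itga2, 0 to 67 for Itga4, 0 to 33 for Itga6, 0 to 60 for Itga7, 0 to 33 for Itgb4, 0 to 30 for Itgb8, 0 to 39 for Lamb3 and 0 to 101 for Lamc3. Lamc3 was at 0 in 4 libraries, and the highest of the others was CTR replicate 2 at 3.09 CPM.

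Genes that work with these chains were read from lists of related genes. Of 15 basement membrane partners, 9 were tested, and the most abundant were Sparc, a collagen-binding matrix protein (4816 TPM), and the type IV collagen chains Col4a1 (872 TPM) and Col4a2 (595 TPM). Their log2 fold changes were 0.05 (SE 0.15), -0.08 (SE 0.09) and -0.17 (SE 0.09). Of 8 other laminin receptors, 7 were tested, led by the syndecans Sdc1 (743 TPM) and Sdc2 (562 TPM) and by the dystroglycan gene Dag1 (404 TPM), with log2 fold changes of 0.05 (SE 0.11), 0.16 (SE 0.16) and 0.10 (SE 0.13). Dag1 thus exceeded the mean levels of the laminin receptor chains Itga3, Itga6 and Itga7. Of 24 integrin ligands listed, Cyr61 and Ctgf were not found under these symbols and were left out. Of the 22 found, 19 were tested, and Ibsp (17401 TPM), Spp1 (3163 TPM) and Tnc (3132 TPM) led. These encode bone sialoprotein, osteopontin and tenascin-C, with log2 fold changes of 0.20 (SE 0.19), 0.07 (SE 0.27) and 0.20 (SE 0.18). In each of these 3 lists 0 genes had an unadjusted p under 0.05 between genotypes with edgeR (4.43% of all genes).

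Of 32 adhesion adaptors and partners, 29 were tested, and 0 passed the threshold. The most abundant were the tetraspanin genes Cd81 (631 TPM) and Cd9 (586 TPM) and the α-actinin gene Actn4 (251 TPM), with log2 fold changes of 0.07 (SE 0.09), 0.20 (SE 0.13) and -0.09 (SE 0.10). An unadjusted p under 0.05 between genotypes was found for 2 of the 29 with edgeR (4.43% of all genes). Ptk2b, a focal adhesion kinase relative, had a mean of 12.5 ± 5.40 CPM in CTR against 25.0 ± 11.2 CPM in cKO (SD, n = 4 each), with a log2 fold change of 1.00 (SE 0.36, adjusted p = 0.999 with edgeR). Lims2, an adaptor of the integrin-linked kinase complex, was at 1.92 ± 0.768 and 0.798 ± 0.240 CPM (log2 fold change -1.27, SE 0.40, adjusted p = 0.999 with edgeR). Median log2 fold changes were 0.05 for the basement membrane partners, 0.05 for the other laminin receptors, 0.04 for the integrin ligands and -0.01 for the adaptors, and -0.0013 over all genes tested.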

How the data were processed

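The 8 libraries hold RNA of MSPCs sorted from 8 mice. The authors, by their methods and processing notes, trimmed both read ends, used HISAT2 with mm10 and HTSeq for counting, and deposited raw counts per gene, without normalization. Coordinates, exon lengths and coding sequences are those of GENCODE M21 on GRCm38, which may differ from the release the authors used. Of 52636 identifiers, 52403 matched a symbol.

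Genes with a count above 0 in all 8 libraries were tested with edgeR 4.0.16 (TMM scaling, glmQLFit, glmQLFTest, Benjamini-Hochberg over 14598 genes, threshold 0.05) in R 4.3.3, without covariates for genotype and with genotype as a term for title numbers. The methods name a batch correction, but no label gives a batch. Alternatives were RLE scaling, other filters, DESeq2 1.42.0, voom of limma 3.58.1, a title number term, the replicate number as a block, and each library left out. Each library is from a mouse of its own by its title. The script was tested on simulated data. The fits of title numbers for single genes, and ratios and trimers by the longest transcript, were added after the data were seen. Replicates of a genotype differed by far more than sampling noise (chi-square per gene 53.9 to 109). Deviations of same-numbered libraries correlated by 0.0572 to 0.176. Libraries of unlike number were not correlated for comparison, so these values do not settle whether the numbers pair the mice. The fit as reported holds no term for pairs.

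The members, marker lists and related lists were chosen with earlier results of these data known. Values are given in every library for the 3 α, 3 β and 3 laminin chains of highest mean TPM, both nidogens, and members with an unadjusted p under 0.05 or without overlap between genotypes. From related lists, the 3 most abundant genes and those with an unadjusted p under 0.05 between genotypes are named. Other genes named were chosen after their values were seen. Total counts per library, 31047344 to 38216877, set the precision of low values. Sequences of laminin chains are not reported here.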

Additional observations from a re-analysis of the deposited data

Results flagged for a closer look

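In 4 of 44 groups of 4 libraries examined (22 members in each genotype), a single library lay far from the other 3 by Dixon's test at the 95% level, where chance gives about 1 in 20, or 2.2 groups. The gap to the nearest library, as a share of the whole range, was 0.899 for Itgb3 in CTR (replicate 3 at 29.6 CPM, the others at 11.3 to 13.2 CPM) and 0.881 for Itgb5 in CTR (replicate 4 at 198 CPM, the others at 169 to 172 CPM). It was 0.916 for Lama2 in cKO (replicate 1 at 9.84 CPM, the others at 23.8 to 25.1 CPM) and 0.927 for Lamb1 in cKO (replicate 2 at 584 CPM, the others at 515 to 520 CPM).

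The ratio of Nid1 to Nid2 moved in opposite directions in the title number ranges. Of 10 ratios examined, the mean difference between genotypes also changed sign between the ranges for Lama4 to Lama5 (2.71 with titles 26 to 32, -5.06 with 67 to 86) and Lamb1 to Lamb2 (-0.11 and 0.17), but of these 3 only Nid1 to Nid2 had CTR and cKO pairs that did not overlap in either range. With titles 26 to 32 it was 1.61 on average in CTR and 1.30 in cKO, and with titles 67 to 86 it was 1.72 in CTR and 2.33 in cKO, each pair of cKO libraries lying outside the CTR pair. The difference between these effects was 0.919, and it was not tested on the ratio. How often pairs of so few libraries do not overlap in both ranges was not counted over other genes. For Nid1 itself, the interaction of genotype and title number range was 0.45 on the log2 scale (SE 0.21, adjusted p = 1.00 with edgeR), and for Nid2 it was -0.31.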

How the results depend on the processing

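No member passed the threshold between genotypes in any of the other 17 settings. The number of genes called was 0 with edgeR as reported, 1 without a filter and with filterByExpr, 23 with DESeq2's Wald test, 22 with its likelihood ratio test, 47 with the title number range added to the latter, and 0 with each library left out. Members with an unadjusted p under 0.05 (1 as reported) numbered 0 without a filter, 2 with each DESeq2 test, 2 with the title number range in edgeR, 3 with it in DESeq2, and 0 to 2 with each library left out. Deviations of same-numbered libraries correlated by 0.131, 0.176, 0.0844 and 0.0572, without a value for libraries of unlike number to compare. Whether the number pairs the mice is therefore not settled. With the replicate block 2 members, Lama3 and Lama4, had an unadjusted p under 0.05 and no gene was called. Between title number ranges, where a block could not be fitted beside the range, genes called (2 as reported) numbered 1 with RLE scaling, 4 without a filter, 380 and 342 with DESeq2's Wald and likelihood ratio tests, 0 without the genotype term and 0 to 4 with each library left out. Members called there numbered 1 with each DESeq2 test, Lama3, and members with an unadjusted p under 0.05 (3 as reported) 2 to 5 with each library left out. The cause of these differences was not tested.

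Of the 22 log2 fold changes between genotypes, 12 kept their sign in every setting. Itga3 (-0.01) turned to 0.0046 with limma-voom, 0.0026 with the title number range and 0.015 with the replicate block. With each library left out, values ranged from -0.11 to 0.22 for Itga3, -0.053 to 0.035 for Itga5, -0.14 to 0.069 for Itga9, -0.062 to 1.32 for Itga10, -0.084 to 0.079 for Itgav, -0.10 to 0.0098 for Itgb1, -0.40 to 0.77 for Itgb2, -0.091 to 0.53 for Itgb3, -0.0078 to 0.22 for Itgb5 and -0.17 to 0.094 for Lamb2. Itga10 and Itgb2 turned below 0 without cKO replicate 1. Depth limits the genes with few counts, Itga10, Itgb2 and Lama3, and the 10 members left out of the fit as reported.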
